A study of Homo sapiens with 50 samples.

Results

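The 3 enzymes that make serine from glucose carbon, PHGDH, PSAT1 and PSPH, were followed across A549 cells that were kept with or without serine and given compound 16 or its solvent. All probe sets annotated to these genes were taken, and each gene was read from the probe set with the highest mean signal. That gave 3 of the 18239 genes tested and 12 of the 49386 probe sets on the array: 1 for PHGDH, 8 for PSAT1 and 3 for PSPH. On the probe sets used, PHGDH and PSAT1 showed the widest movements, with group means that spanned 1.91 and 1.63 log2 units (3.77-fold and 3.09-fold). PSPH spanned 0.89 (1.86-fold). This order depended on the probe set: the others of PSAT1 spanned 1.73 to 2.26, and those of PSPH 1.74 and, at low signal, 0.42.

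A549 is an established human lung adenocarcinoma line. The cells were first grown in RPMI, and 3 arrays hold such cells before any change of medium. All other cells were moved to BME, a basal medium without non-essential amino acids, to which these amino acids had been added back with or without serine. After 24 h in that medium they received 1 uM compound 16 or DMSO, the solvent, and were harvested 0, 1.5, 6 and 24 h later. The 17 groups had 3 arrays each, except the 1.5 h DMSO group with serine with 2, for 50 arrays in all. The 0 h arrays of compound 16 therefore stand for cells harvested at the time of addition. Cells before the change of medium differ from all others in the medium as a whole and not in serine alone. The others also had 24 h or more of further culture, and no group stayed in RPMI for that time. Medium and time in culture therefore cannot be told apart in comparisons with these cells. The labels name the compound only by its number, all groups are 1 cell line, and nothing says that the replicate arrays were separate cultures.

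Cells make serine from 3-phosphoglycerate, an intermediate of glycolysis. PHGDH oxidises it to 3-phosphohydroxypyruvate with NAD+, PSAT1 moves an amino group onto that product from glutamate, and PSPH removes the phosphate to release serine. The serine then feeds protein synthesis, glycine and the folate one-carbon units, phospholipids and the transsulfuration pathway. The genes are known targets of ATF4, the transcription factor that cells make more of when amino acids run short, and in lung cancer lines such as A549 they are also known to be raised by the transcription factor NRF2.

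The promoters of 2 members were in the RefSeq promoter table (GRCh38.p14). They are shown because the members rose together under compound 16, with matches to the searched motifs in capitals. Each run is the 250 bases before the annotated start, 5′ to 3′ on the strand of the gene, which is the plus strand for both: PHGDH at chr1:119711684-119711933 and PSAT1 at chr9:78296875-78297124.
PHGDH: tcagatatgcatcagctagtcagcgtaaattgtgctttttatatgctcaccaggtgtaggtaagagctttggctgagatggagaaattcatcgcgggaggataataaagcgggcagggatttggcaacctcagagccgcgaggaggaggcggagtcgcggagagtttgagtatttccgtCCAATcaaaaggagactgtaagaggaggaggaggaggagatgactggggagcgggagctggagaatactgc
PSAT1: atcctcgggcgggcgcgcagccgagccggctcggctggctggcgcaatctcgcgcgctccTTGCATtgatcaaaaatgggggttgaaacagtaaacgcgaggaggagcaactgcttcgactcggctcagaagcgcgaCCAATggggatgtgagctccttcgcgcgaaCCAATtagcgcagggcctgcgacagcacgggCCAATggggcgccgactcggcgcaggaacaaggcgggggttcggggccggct
The 6 motifs searched on both strands were the C/EBP-ATF response element TGATGNAA, the shorter TTGCAT from C/EBP sites, the TGACG that forms part of cyclic AMP response elements, the CCAAT box, the E-box CACGTG and the antioxidant response core TGACNNNGC. PHGDH held 1 match, a CCAAT that lay 71 to 67 bases before the start. PSAT1 held 3 CCAAT matches, at 113 to 109, 83 to 79 and 52 to 48 bases before the start, and 1 TTGCAT at 190 to 185. No 2 motifs overlapped there. Of 27305 RefSeq promoters of that length, 33% held the CCAAT box at least once and 3.09% held it 3 times or more. TTGCAT stood in 9.03% of them, and the response element TGATGNAA in 3.19%. The shares were 21.7% for TGACG, 6.49% for the E-box and 11% for the antioxidant core. The GC content was 51.2% for PHGDH and 65.6% for PSAT1, against a median of 58.0% over all promoters. These are matches of letters, and no binding was measured.

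The values are log2 signals that ran from 3.36 to 14.58, with array medians from 5.40 to 5.54. The SD of the difference between 2 arrays of a group lay between 0.193 and 0.255 over all genes, each read from 1 probe set. All 6 epithelial markers looked for and all 4 NRF2 targets known to be high in A549 were in the upper part of the signals, at percentiles 80.9 to 100 and 99.3 to 100. Markers of immune cells (3 of 4 measured, percentiles 7.54 to 47), endothelial cells (3 of 3, 19 to 38.5) and fibroblasts (3 of 3, 9.24 to 36.2) were low. The 3′ to 5′ difference of the ACTB control probe sets, a sign of RNA quality, had group means from 1.01 to 1.37. In these bulk samples, fewer cells of a type and less RNA per cell cannot be told apart.

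**Figure D1:**
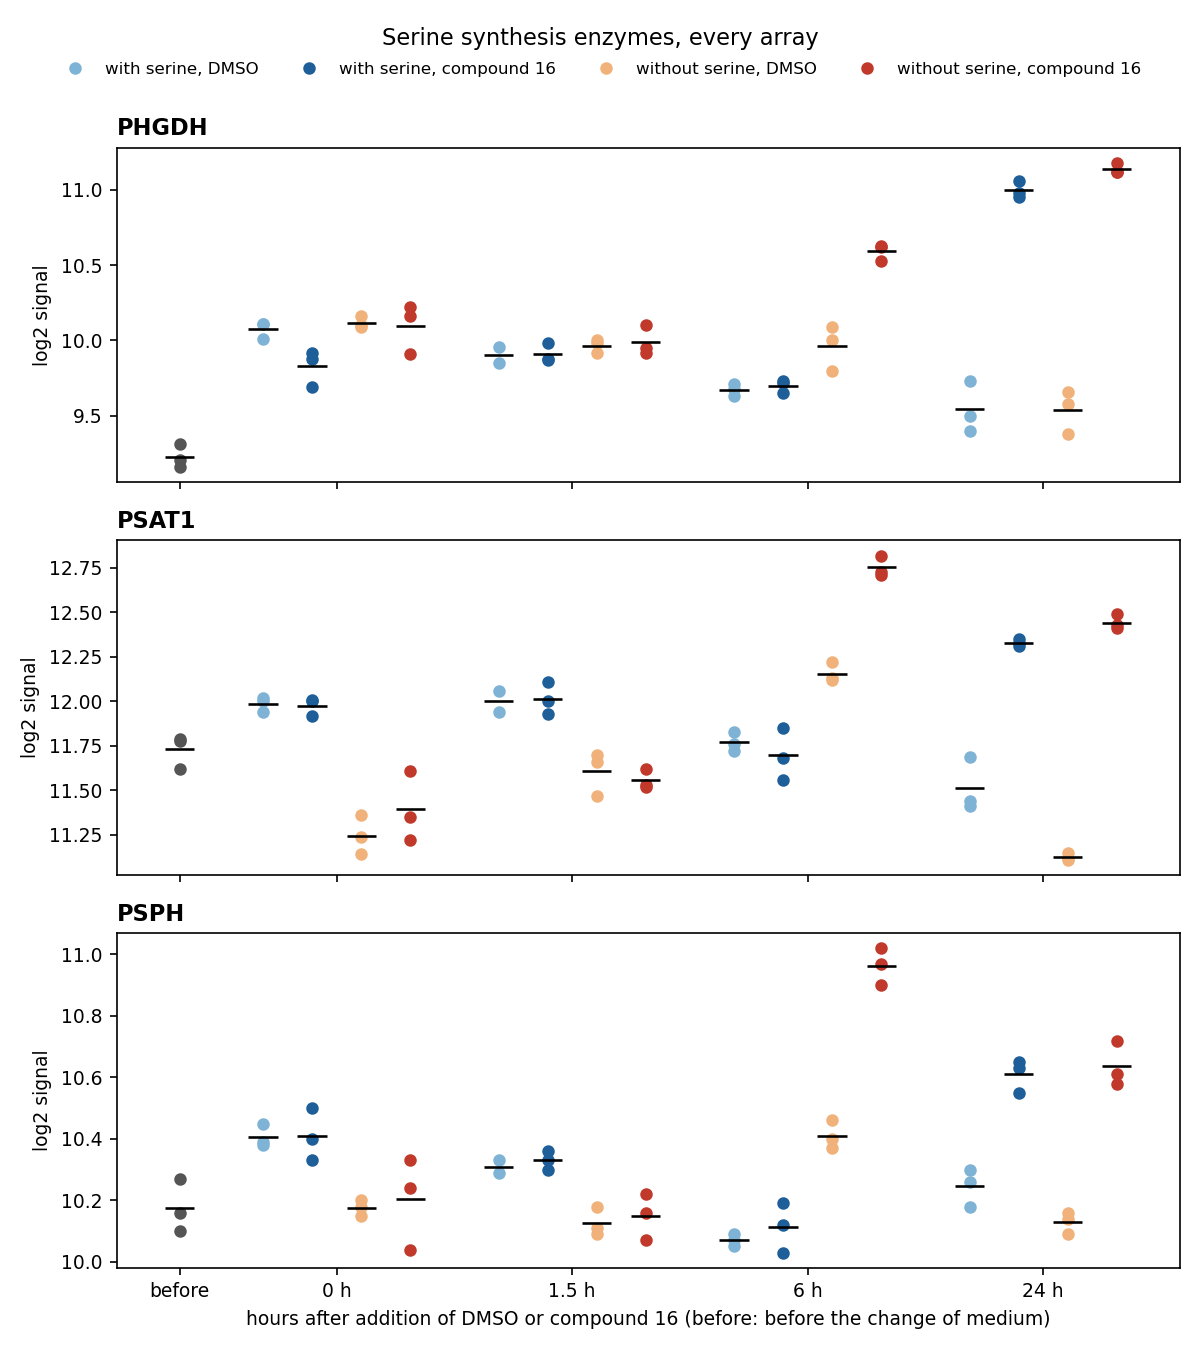
Log2 signal (vertical axis) of PHGDH, PSAT1 and PSPH on every array, by group along the horizontal axis (hours after addition, with cells before the change of medium on the left); each point is 1 array and each bar a group mean. The 3 arrays of compound 16 without serine at 6 h and both compound groups at 24 h stood at the top for all 3 genes, while PSAT1 also dropped to its lowest levels in DMSO without serine at 0 and 24 h.

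PHGDH, the first enzyme, was lowest before the change of medium, with log2 signals of 9.31, 9.16 and 9.21. It was highest after 24 h of compound 16, with 11.12, 11.12 and 11.18 without serine and 11.06, 10.98 and 10.95 with serine. Compound 16 without serine at 6 h came next, with 10.53, 10.62 and 10.63. These 3 compound groups overlapped neither each other nor any other group. Below them the group means ran from 10.12 to 9.23, mostly in small steps. Over the whole order, 11 of the 16 neighbouring pairs of group means lay closer together than the larger of their SDs. The groups from 0 h DMSO without serine (10.12 ± 0.04, SD, n = 3) down to 1.5 h DMSO with serine (9.90 ± 0.08, SD, n = 2) did not differ from their neighbours beyond that spread. Groups further apart in the order could still differ, as the comparisons below show.

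PSAT1, the transaminase, had another order. Compound 16 without serine at 6 h led, with 12.71, 12.73 and 12.82. Compound 16 at 24 h followed, with 12.49, 12.43 and 12.41 without serine and 12.35, 12.31 and 12.33 with serine. DMSO without serine at 6 h came after these with 12.22, 12.13 and 12.12. The same arm in DMSO held the lowest levels at 24 h, with 11.12, 11.15 and 11.11, and the next lowest at 0 h, with 11.14, 11.36 and 11.24. Each of the 4 highest groups stood clear of the next, and 10 of the 16 neighbouring pairs lay within the larger SD.

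PSPH, the phosphatase, also peaked in compound 16 without serine at 6 h, with 10.97, 11.02 and 10.90, clear of all other groups. The 24 h compound groups came next, with 10.58, 10.72 and 10.61 without serine and 10.63, 10.55 and 10.65 with serine, and they overlapped each other. The lowest level was in DMSO with serine at 6 h, with 10.05, 10.09 and 10.07. The remaining groups lay between, and 12 of the 16 neighbouring pairs over the whole order were within the larger SD.

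From before the change of medium to 24 h after it, PHGDH rose whether or not serine was present, while PSAT1 moved in opposite directions in the 2 media. No group stayed in RPMI for those 24 h, so medium and time in culture cannot be told apart here. All tests were made in 1 limma fit over 17 groups, with Benjamini-Hochberg adjusted p-values over all genes in a comparison. Without serine, PHGDH rose from the levels given above to 10.10, 10.16 and 10.09 at 0 h in DMSO, a difference of 0.89 ± 0.08 (SE; 1.85-fold, adjusted p = 2.8e-11). With serine it rose to 10.01, 10.11 and 10.11, by 0.85 ± 0.08 (1.8-fold, adjusted p = 1.36e-10). Neither group overlapped the cells before the change. PSAT1 started from 11.79, 11.62 and 11.78 and fell by 0.48 without serine (SE 0.08, adjusted p = 9.44e-06), to arrays of 11.14, 11.36 and 11.24 that all lay below the start. With serine it stood at 12.02, 11.94 and 12.00, all above the start, and rose by 0.26 ± 0.08 (adjusted p = 0.0178). PSPH began at 10.10, 10.16 and 10.27. It differed by 0.00 ± 0.06 without serine (95% interval -0.12 to 0.12), and with serine it rose by 0.23 ± 0.06 (adjusted p = 0.00428), to 10.38, 10.45 and 10.39.

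Thus 2 of the 3 members were called without serine, where 28.6% of all genes were called in either direction, and 3 of 3 were higher with serine, where 12.3% of genes were called higher. The rises of PSAT1 and PSPH with serine ended when arrays were centred on their medians (0.18, adjusted p = 0.13, and 0.15, adjusted p = 0.0572) or when only the compared arrays were fitted (adjusted p = 0.0736 and 0.0917), and that of PSAT1 without replicate 2 of the cells before the change (0.20, adjusted p = 0.121) or without replicate 13 of the DMSO group (0.24, adjusted p = 0.064). The ACTB 3′ to 5′ difference was 1.37 before the change, the highest of all groups, against 1.14 without and 1.22 with serine. The mean of the 3 immune markers was also highest before the change (5.25). CD14 varied most of the 3: its group means ran from 5.25 to 6.82, those of CD3E from 4.16 to 4.75 and of PTPRC from 3.98 to 4.21. The part of RNA quality or of these markers in the differences was not tested.

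Leaving out serine did not move the 3 genes in 1 direction: in DMSO, PSAT1 and PSPH were lower without serine at 0 h, higher at 6 h, and PSAT1 was lower again at 24 h. At 0 h, PSAT1 read 11.14, 11.36 and 11.24 without serine against 12.02, 11.94 and 12.00 with it. It fell by 0.74 (SE 0.08; 1.67-fold lower, adjusted p = 1.26e-07), with no overlap, and ranked 7 of 18239 genes by p in this comparison. PSPH read 10.20, 10.15 and 10.18 against 10.38, 10.45 and 10.39 and fell by 0.23 (SE 0.06, adjusted p = 0.0166). PHGDH did not separate the media at 0 h, with a difference of 0.04 ± 0.08 and a 95% interval of -0.12 to 0.20. So 2 of 3 members were lower at 0 h, where 2.92% of all genes were called lower.

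Since the 0 h arrays with compound 16 were harvested at the time of addition, they give a second set for the same contrast. PSAT1 was lower there too, at 11.61, 11.35 and 11.22 against 12.01, 11.92 and 12.00, a fall by 0.58 (SE 0.08, adjusted p = 1.54e-05). PHGDH was 0.27 higher (SE 0.08, adjusted p = 0.0475) and PSPH fell by 0.21 (SE 0.06, adjusted p = 0.042), with overlapping arrays in both, so that all 3 members were called against 4.12% of genes called in either direction. Over the 6 arrays of each medium at 0 h, a comparison added after the values were seen, PSAT1 fell by 0.66 (SE 0.06, adjusted p = 1.73e-10) and PSPH by 0.22 (SE 0.04, adjusted p = 0.000416), while PHGDH differed by 0.15 ± 0.06 (adjusted p = 0.0684), and 5.6% of genes were called lower.

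The calls of PHGDH and PSPH at 0 h rested on few arrays. In the compound set, PHGDH lost its call without replicate 10 (0.31, adjusted p = 0.0533), 11 (0.30, 0.0638), 12 (0.20, 0.252), 17 (0.21, 0.249) or 18 (0.24, 0.185) and after centring (0.22, 0.143). PSPH lost it there without replicate 11 (-0.21, adjusted p = 0.0833), 12 (-0.16, 0.211), 17 (-0.13, 0.342) or 18 (-0.23, 0.0703), and in DMSO without replicate 14 (-0.21, 0.079) or 20 (-0.22, 0.0602). PSAT1 stayed past the threshold at 0 h in both sets without any 1 array; with only the compared arrays fitted, its adjusted p was 0.0605 in DMSO and 0.173 in the compound set.

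At 1.5 h in DMSO, PSAT1 was still lower without serine. It read 11.47, 11.70 and 11.66 against 12.06 and 11.94 on the 2 arrays with serine, and fell by 0.39 (SE 0.09, adjusted p = 0.0124). The call ended without replicate 49 (-0.33, adjusted p = 0.249), 50 (-0.45, 0.0605) or 54 (-0.32, 0.106), or with only the compared arrays (0.275). PSPH differed by -0.18 ± 0.07 (adjusted p = 0.2; -0.26 and 0.0188 with arrays centred) and PHGDH by 0.07 ± 0.09 (adjusted p = 0.884). The count was thus 1 of 3 lower, against 0.927% of genes.

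At 6 h in DMSO, all 3 members were higher without serine, where 1.75% of genes were called higher. PSAT1 read 12.22, 12.13 and 12.12 without serine against 11.72, 11.83 and 11.76 with it, and rose by 0.39 ± 0.08 (adjusted p = 0.00282). PSPH read 10.46, 10.40 and 10.37 against 10.05, 10.09 and 10.07, and rose by 0.34 ± 0.06 (adjusted p = 0.000458). In both genes the groups did not overlap. PHGDH read 9.80, 10.09 and 10.00 against 9.63, 9.68 and 9.71 and rose by 0.29 ± 0.08 (adjusted p = 0.0365), a call that ended without replicate 60 (0.27, adjusted p = 0.128), 61 (0.29, 0.0819), 62 (0.31, 0.0866), 67 (0.22, 0.245) or 68 (0.27, 0.128) and with arrays centred (0.27, 0.0689). With only the compared arrays fitted, the adjusted p was 0.289 for PHGDH, 0.127 for PSAT1 and 0.152 for PSPH. The PSPH call also ended with the mean of its probe sets (0.21, adjusted p = 0.146) and with 11754138_s_at in the place of the one used (0.32, adjusted p = 0.288 over genes). The ACTB 3′ to 5′ difference was 1.32 without and 1.19 with serine here, and its part was not tested.

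At 24 h in DMSO, PSAT1 was again the only member called. It read 11.12, 11.15 and 11.11 without serine against 11.44, 11.41 and 11.69 with it, and fell by 0.39 (SE 0.08, adjusted p = 0.0271), where 0.0713% of genes were called lower. One array with serine stood well above the other two: without it (replicate 98) the difference was -0.30 (adjusted p = 0.295). The call also ended without any 1 of the 3 arrays lacking serine (-0.40 to -0.38, adjusted p from 0.0747 to 0.121), and with only the compared arrays fitted (0.518). PSPH differed by -0.12 ± 0.06 (adjusted p = 0.661) and PHGDH by 0.00 ± 0.08 (95% interval -0.17 to 0.16).

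**Figure D2:**
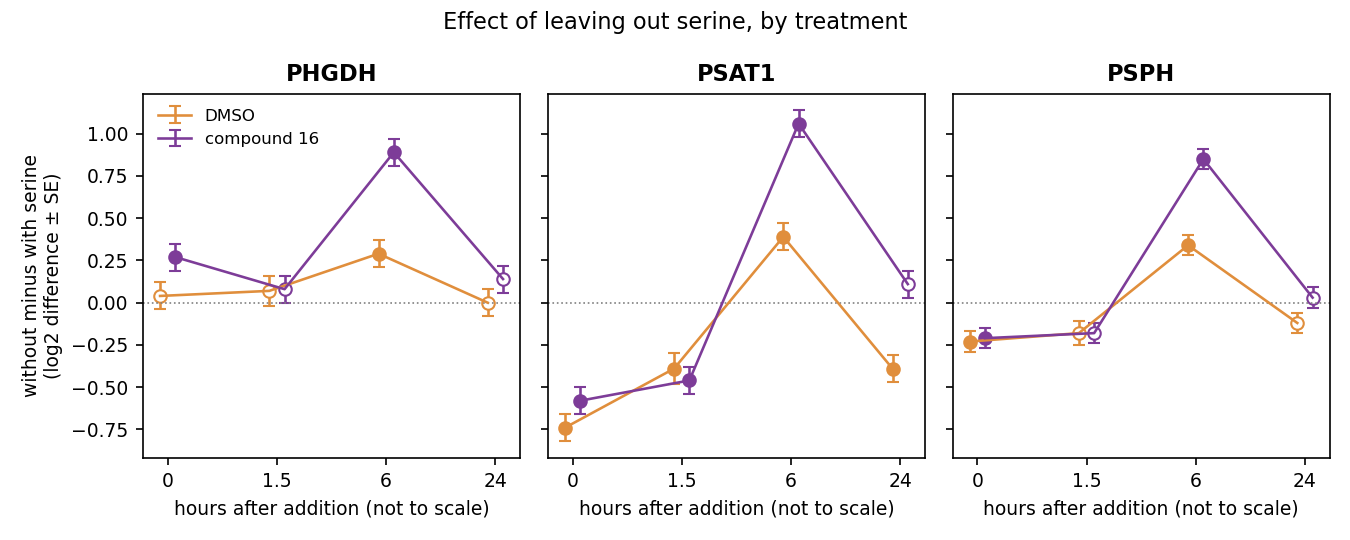
Difference without minus with serine (vertical axis, log2 ± SE) at 0, 1.5, 6 and 24 h (horizontal axis, not to scale) in DMSO and under compound 16; filled points passed an adjusted p under 0.05. PSAT1 went from -0.74 at 0 h to 0.39 at 6 h and -0.39 at 24 h in DMSO, and all 3 genes peaked at 6 h, higher under compound 16 than in DMSO.

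Whether the serine effect changed between times was tested directly, in comparisons added after the values were seen. In DMSO, the effect on PSAT1 was 1.13 ± 0.11 higher at 6 h than at 0 h (adjusted p = 1.79e-08) and 0.77 lower at 24 h than at 6 h (-0.77 ± 0.11, adjusted p = 8.03e-05). For PSPH the same steps were 0.57 ± 0.09 (adjusted p = 7.02e-05) and -0.46 ± 0.09 (adjusted p = 0.00301). PHGDH did not pass, with 0.25 ± 0.11 (adjusted p = 0.405) and -0.29 ± 0.11 (adjusted p = 0.335). At each step 2 of 3 members were thus called, against 0.329% of genes higher at the first and 0.406% lower at the second. With only the compared arrays fitted, the second step of PSPH had an adjusted p of 0.104. Each step shares its 6 h arrays with the other.

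Under compound 16, serine lack at 6 h moved all 3 genes further. PHGDH read 10.53, 10.62 and 10.63 without serine against 9.65, 9.73 and 9.72 with it, and rose by 0.89 ± 0.08 (1.85-fold, adjusted p = 8.7e-11). PSAT1 read 12.71, 12.73 and 12.82 against 11.68, 11.56 and 11.85, and rose by 1.06 ± 0.08 (2.08-fold, adjusted p = 1.1e-12). PSPH read 10.97, 11.02 and 10.90 against 10.03, 10.12 and 10.19, and rose by 0.85 ± 0.06 (1.8-fold, adjusted p = 1.62e-13). The groups were far apart in each gene, and 6.22% of all genes were called higher here. The ACTB 3′ to 5′ difference was 1.20 without and 1.01 with serine, and its part was not tested. At 1.5 h only PSAT1 was called, with a fall by 0.46 (SE 0.08, adjusted p = 0.000317; 0.0542 with only the compared arrays fitted), against 1.54% of genes lower. At 24 h no member was called: PHGDH differed by 0.14 ± 0.08 (adjusted p = 0.4), PSAT1 by 0.11 ± 0.08 (0.55) and PSPH by 0.03 ± 0.06 (0.906), while 4.39% of genes were called in either direction and 2915 genes had an unadjusted p under 0.05. From 0 to 6 h the serine effect under the compound rose by 0.62 ± 0.11 for PHGDH, 1.64 ± 0.11 for PSAT1 and 1.06 ± 0.09 for PSPH, with adjusted p-values of 0.000374, 1.41e-13 and 1.04e-11 and 2.38% of genes called higher. From 6 to 24 h it fell by 0.75, 0.94 and 0.82 (adjusted p = 2.46e-05, 2.75e-07 and 9.03e-09), against 2.97% of genes called lower.

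Compound 16 raised all 3 genes from 6 h on in medium without serine, and with serine by 24 h. At 0 and 1.5 h no member was called in either medium, where limma called 0 genes at 0 h without serine, 15 (0.0822%) at 1.5 h without serine, and 0 at both times with serine (1318, 808, 1029 and 614 genes had an unadjusted p under 0.05). The largest of those early differences was PHGDH with serine at 0 h, where the arrays 9.92, 9.88 and 9.69 all lay below the DMSO arrays 10.01, 10.11 and 10.11 (-0.25 ± 0.08, adjusted p = 0.699). Both groups were harvested at the time of addition, so this is a gap between groups alike in medium and time. The same compound group stands in the serine difference of PHGDH in the 0 h compound set (0.27 ± 0.08). Without serine at 6 h, the compound arrays of each gene lay above all DMSO arrays: PHGDH rose by 0.63 ± 0.08, PSAT1 by 0.60 ± 0.08 and PSPH by 0.55 ± 0.06 (adjusted p = 9.57e-07, 2.89e-06 and 3.41e-08), and 1.49% of genes were called higher. With serine at 6 h the 3 differences were 0.03, -0.07 and 0.04, with 95% intervals of -0.13 to 0.19, -0.24 to 0.09 and -0.08 to 0.17; here limma called 0 genes and 1105 had an unadjusted p under 0.05.

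Without serine at 24 h, PHGDH went from 9.58, 9.66 and 9.38 in DMSO to 11.12, 11.12 and 11.18, by 1.60 ± 0.08 (3.04-fold, adjusted p = 9.06e-18), and ranked 6 of 18239 genes by p. PSAT1 rose by 1.32 ± 0.08 (2.49-fold, adjusted p = 1.85e-15) and PSPH by 0.51 ± 0.06 (1.42-fold, adjusted p = 6.79e-08), where 2.97% of genes were called higher. With serine at 24 h, PHGDH went from 9.40, 9.50 and 9.73 to 11.06, 10.98 and 10.95, by 1.45 ± 0.08 (2.74-fold, adjusted p = 4.6e-16), and ranked 3 of 18239 genes by p. PSAT1 rose by 0.82 ± 0.08 (1.76-fold, adjusted p = 3.56e-09) and PSPH by 0.36 ± 0.06 (1.29-fold, adjusted p = 0.00021), where 0.746% of genes were called higher. In each of these comparisons the compound arrays lay above all DMSO arrays of their medium. The mean of the 3 immune markers was lowest of all groups under the compound without serine at 24 h (4.52), and its part was not tested. CD14 alone had group means from 5.25 to 6.82, the widest range of the 3. The PSPH call with serine ended with only the compared arrays fitted (adjusted p = 0.241) and with the mean of its probe sets (0.25, 0.0996).

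**Figure D3:**
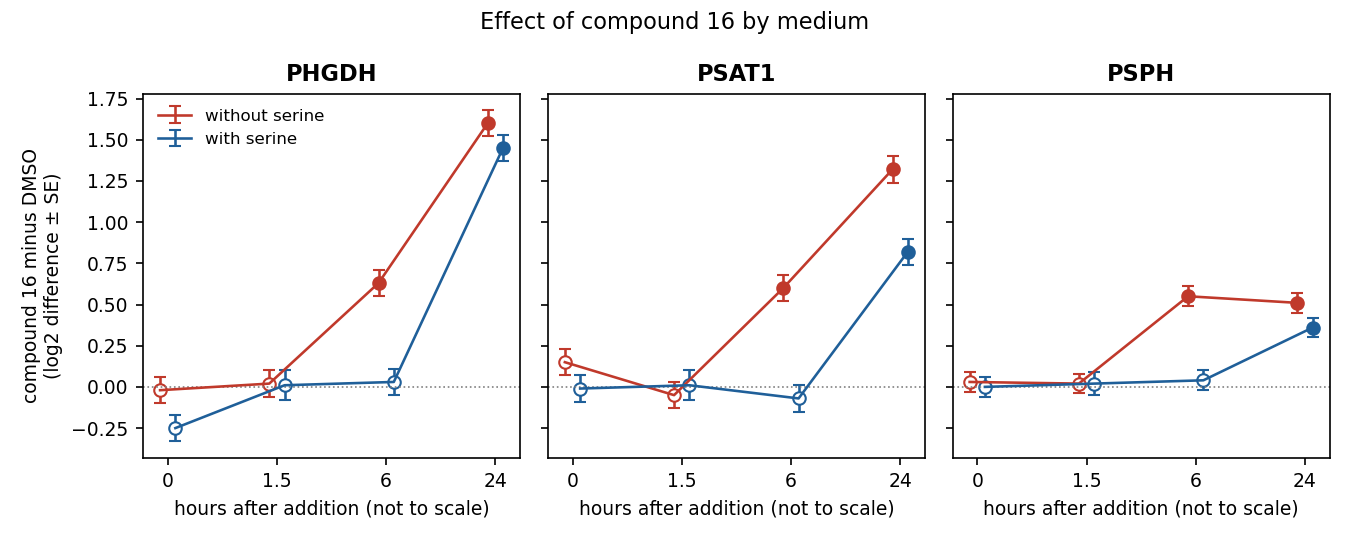
Difference compound 16 minus DMSO (vertical axis, log2 ± SE) at 0, 1.5, 6 and 24 h (horizontal axis, not to scale) without and with serine; filled points passed an adjusted p under 0.05. At 6 h the differences were 0.63, 0.60 and 0.55 without serine and 0.03, -0.07 and 0.04 with it, and at 24 h all 3 genes were higher in both media, by up to 1.60 for PHGDH.

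The effect of the compound depended on serine for all 3 genes at 6 h. It was larger without serine by 0.60 ± 0.11 for PHGDH (adjusted p = 0.00192), 0.67 ± 0.11 for PSAT1 (adjusted p = 0.00042) and 0.51 ± 0.09 for PSPH (adjusted p = 0.000355), against 0.62% of genes called higher. With only the compared arrays fitted, the adjusted p was 0.0532 for PHGDH and 0.0535 for PSPH. At 24 h PSAT1 alone passed, with 0.50 ± 0.11 (adjusted p = 0.0138) and 0.384% of genes called higher; without replicate 98 of the DMSO group with serine it was 0.41 (adjusted p = 0.0765), and with only the compared arrays the adjusted p was 0.0987. PHGDH differed between media at 24 h by 0.15 ± 0.11 (95% interval -0.08 to 0.38) and PSPH by 0.14 ± 0.09 (-0.03 to 0.32).

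The courses over time show how these differences came about within each arm. Title numbers run in blocks by time, so time and block cannot be told apart in what follows. In DMSO without serine, PSAT1 climbed by 0.36 ± 0.08 from 0 to 1.5 h and by 0.55 ± 0.08 from 1.5 to 6 h, then fell by 1.03 to 24 h (SE 0.08; adjusted p = 0.00202, 1.57e-05 and 7.34e-12). The first step was not called by 4 of the 7 other PSAT1 probe sets, 3 of which gave -0.14, -0.06 and -0.12, or with only the compared arrays fitted (adjusted p = 0.0935), and 5.58% of genes were called higher at it. PSPH moved by -0.05 ± 0.06 at the first step (adjusted p = 0.651), rose by 0.28 ± 0.06 at the second (adjusted p = 0.00285) and fell by 0.28 at the third (SE 0.06, adjusted p = 0.0013). PHGDH stood at -0.15 ± 0.08 and 0.00 ± 0.08 over the first steps (adjusted p = 0.23 and 0.988) and fell by 0.42 at the third (SE 0.08, adjusted p = 0.000275). So all 3 fell from 6 to 24 h, where 7.35% of genes were called lower, and 2 of 3 rose from 1.5 to 6 h, where 1.4% were called higher. With only the compared arrays fitted, the fall of PSAT1 stayed past the threshold, while PHGDH (adjusted p = 0.0821) and PSPH (0.0697, and 0.154 for its rise) did not.

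In compound 16 without serine, all 3 genes rose from 1.5 to 6 h: PHGDH by 0.61 ± 0.08, PSAT1 by 1.20 ± 0.08 and PSPH by 0.81 ± 0.06 (adjusted p = 8.52e-07, 4.13e-14 and 7.69e-13), with 2.94% of genes called higher. From 6 to 24 h they parted. PHGDH rose on by 0.55 ± 0.08 (adjusted p = 8.03e-06), while PSPH fell by 0.33 (SE 0.06, adjusted p = 0.000223) and PSAT1 by 0.31 (SE 0.08, adjusted p = 0.00831; -0.22 and 0.0795 with arrays centred). In this step 3.33% of genes were called higher and 7.23% lower. With only the compared arrays fitted, the adjusted p was 0.055 for PSAT1 and 0.0575 for PSPH.

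With serine, the main rise came later. Under compound 16, PHGDH, PSAT1 and PSPH gained 1.29 ± 0.08, 0.63 ± 0.08 and 0.50 ± 0.06 from 6 to 24 h (adjusted p = 8.22e-15, 1.39e-07 and 5.95e-08), where 8.41% of genes were called higher. In DMSO with serine, PHGDH fell by 0.53 and PSAT1 by 0.47 from 0 to 24 h (SE 0.08 each, adjusted p = 6.63e-06 and 4.4e-05), against 14.8% of genes called lower, and PSPH differed by -0.16 ± 0.06 (adjusted p = 0.0561). In DMSO without serine over the same span, PHGDH fell by 0.58 (SE 0.08, adjusted p = 1.41e-06), PSAT1 differed by -0.12 ± 0.08 (adjusted p = 0.297) and PSPH by -0.05 ± 0.06 (adjusted p = 0.622), where 17.5% of genes were called lower. From 0 to 24 h in DMSO, centring of arrays on their medians moved all genes up by 0.21 with serine and by 0.18 without. The falls of PHGDH and PSAT1 called here became smaller but stayed called. The shift was larger than the differences not called, so the sign of those depended on it.

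Set against cells still in RPMI, PHGDH at 24 h was higher in all 4 arms, and the other genes by arm. PHGDH rose by 0.31 ± 0.08 in DMSO in both media (adjusted p = 0.0023 without and 0.00197 with serine), by 1.91 ± 0.08 under the compound without serine (3.77-fold, adjusted p = 4.21e-21) and by 1.77 ± 0.08 with it (3.41-fold, adjusted p = 5.75e-20). PSAT1 rose by 0.71 ± 0.08 and 0.60 ± 0.08 under the compound (adjusted p = 2.29e-09 without and 1.05e-07 with serine) and fell by 0.60 in DMSO without serine (SE 0.08, adjusted p = 1.21e-07). In DMSO with serine it fell by 0.22 (SE 0.08, adjusted p = 0.0347), a call that ended with arrays centred (-0.08, 0.434), with only the compared arrays fitted (0.162), and without replicate 1 (-0.19, 0.124) or 3 (-0.19, 0.116) of the cells in RPMI or replicate 96 (-0.18, 0.135) or 97 (-0.17, 0.177) of the DMSO group. PSPH rose by 0.46 ± 0.06 and 0.43 ± 0.06 under the compound (adjusted p = 6.27e-08 and 2.3e-07), and differed in DMSO by -0.05 ± 0.06 (adjusted p = 0.62) without and 0.07 ± 0.06 (adjusted p = 0.418) with serine. These arms share their control arrays, and the background is high: 16.5% and 15.5% of genes were called higher under the compound without and with serine, and 33.2% and 33.3% in either direction in DMSO. Centring of arrays on their medians moved all genes by 0.10 to 0.14 log2 units in these comparisons, and with only the compared arrays fitted PHGDH in DMSO with serine had an adjusted p of 0.06.

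On the probe sets used, the 3 members did not keep their proportions. Taken from each array and counted from the cells before the change of medium, PHGDH had gained 1.37 ± 0.08 (SD, n = 3) log2 units more than PSAT1 at 0 h in DMSO without serine, but 0.59 ± 0.09 more with serine. At 6 h without serine the gap had shrunk to 0.31 ± 0.20 in DMSO and 0.34 ± 0.04 under compound 16. At 24 h under the compound it was back at 1.20 ± 0.07 without and 1.17 ± 0.05 with serine, with arrays from 1.12 to 1.27 over both groups. The size of this gap depended on the PSAT1 probe set. Against cells before the change, the 8 PSAT1 probe sets rose by 0.71 to 1.36 without serine and 0.60 to 1.27 with it. The one used gave the lowest rise in both. PSAT1 and PSPH stayed closer: their gap ran from -0.56 ± 0.03 in DMSO without serine at 24 h to 0.25 ± 0.10 under the compound in the same medium and time. Over the 17 group means, Pearson's r was 0.88 between PSAT1 and PSPH, 0.73 between PHGDH and PSPH and 0.64 between PHGDH and PSAT1. The points share groups and the normalization, so these are descriptions.

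At 24 h the other probe sets of PSAT1 gave larger compound effects than the one used. Over the 8 probe sets, whose means ran from 8.86 to 11.84, the effect of compound 16 at 24 h ran from 1.32 to 1.84 without serine and from 0.82 to 1.31 with it, and the probe set with the highest signal gave the lowest value in both; all 8 passed the test over all probe sets. The change of medium gave -0.60 to -0.01 without serine (5 of 8 lower) and 0.20 to 0.35 with it (2 of 8 higher). Serine lack in DMSO gave -0.83 to -0.35 at 0 h (6 of 8 lower), -0.72 to -0.39 at 1.5 h (8 of 8 lower), 0.34 to 0.54 at 6 h (5 of 8 higher) and -0.48 to -0.04 at 24 h (1 of 8 lower). Without serine at 6 h the compound effect ran from 0.60, the value of the one used, to 1.08, with 8 of 8 higher. The difference of the compound effect between media at 6 h ran from 0.67, again the value of the one used, to 1.04, with 7 of 8 called. At 24 h that difference ran from 0.12 to 0.58, with 3 of 8 called. The correlation of the 7 others with the one used, over 17 group means, lay between 0.91 and 0.99. Probe sets of 1 gene share their samples and are not replicates.

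For PSPH, the probe set 11754138_s_at (mean 7.25) gave larger values than the brighter one used (11730796_x_at, mean 10.32) in some comparisons and not in others. It gave -0.74 ± 0.14 for serine lack in DMSO at 0 h (adjusted p over all probe sets 0.00163), against -0.23, and 0.97 ± 0.14 and 1.08 ± 0.14 for compound 16 without serine at 6 and 24 h, against 0.55 and 0.51. It also fell by 0.54 on the change to medium without serine (SE 0.14, adjusted p = 0.00443), where the brighter one showed 0.00. It did not pass for serine lack in DMSO at 6 h (0.32 ± 0.14, adjusted p = 0.364 over all probe sets, against 0.34) or for compound 16 with serine at 24 h (0.44 ± 0.14, adjusted p = 0.203, against 0.36), and from 1.5 to 6 h in DMSO without serine it gave 0.25 ± 0.14 (adjusted p = 0.502, against 0.28). The third, 11763252_x_at, had a mean of 3.92, at percentile 2.5 of all probe sets, and a correlation of 0.06 with the one used. The suffixes s_at and x_at mark probe sets whose probes can match more than 1 transcript sequence, and RefSeq lists 4 pseudogenes of PSAT1 and 1 of PSPH, so these values are uncertain to that extent. PHGDH had a single probe set and no pseudogene in that table.

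**Figure D4:**
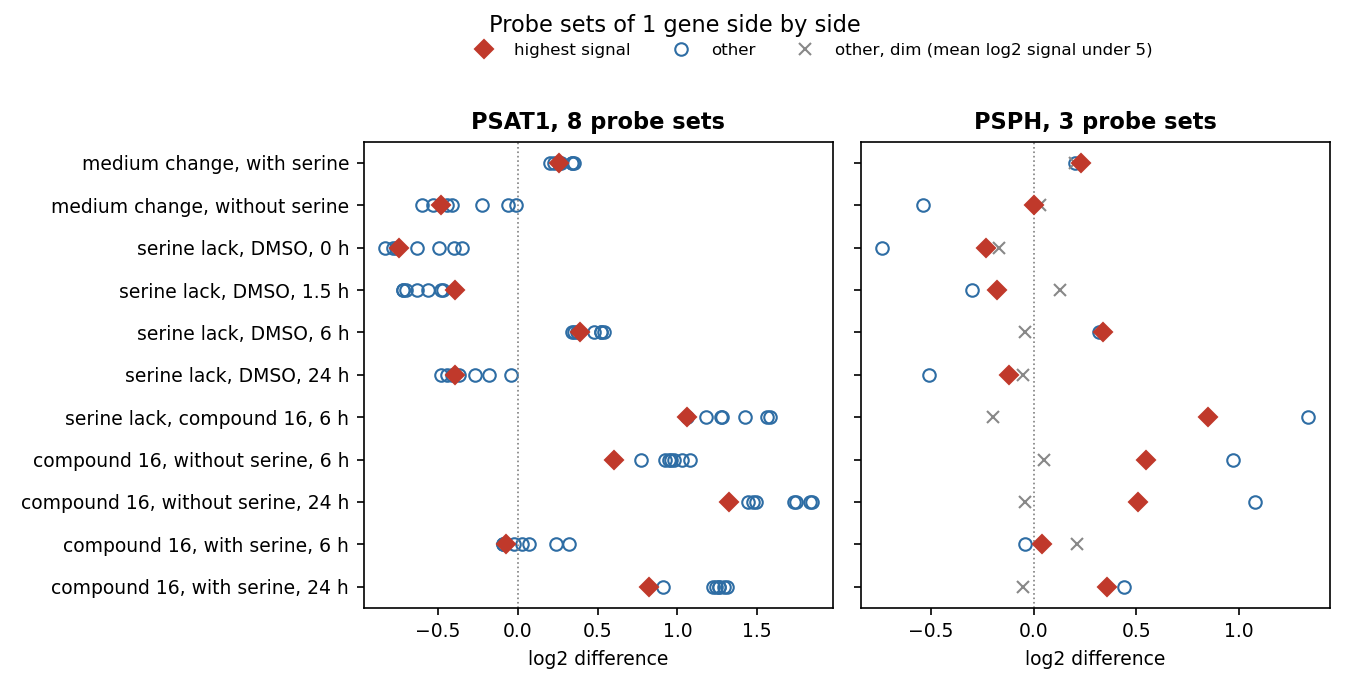
Log2 difference (horizontal axis) given by each probe set of PSAT1 and PSPH in 11 comparisons (rows); the filled diamond is the probe set with the highest signal and crosses a dim one. For compound 16 without serine at 24 h the 8 PSAT1 probe sets lay between 1.32 and 1.84, and the PSPH probe sets were at 1.08, 0.51 and -0.04.

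The genes whose group means ran most like those of a member were picked by Pearson's r over the 17 groups. For PHGDH these were SARS1 (0.935), the seryl-tRNA synthetase, SHMT2 (0.934), the mitochondrial enzyme that splits serine into glycine and a one-carbon unit, PPP4R3B (0.898), GTF2H1 (0.887) and RCN1 (0.879). For PSAT1 they were the tRNA synthetases GARS1 (0.968), TARS1 (0.967) and CARS1 (0.949), the amino acid carrier SLC1A5 (0.966) and XPOT (0.942), the exporter of tRNA from the nucleus. For PSPH they were GARS1 (0.953), the carrier SLC38A1 (0.950), the mitochondrial phosphoenolpyruvate carboxykinase PCK2 (0.947), CARS1 (0.945) and ANKRD11 (0.940). GARS1 and CARS1 were thus near both PSAT1 and PSPH, and none of the 5 of PHGDH was among the 5 of another member. PSPH ranked 22 among all genes by likeness to PSAT1, and PSAT1 ranked 382 by likeness to PHGDH. Without the cells before the change of medium, r was 0.854 or higher for all 15 pairs.

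The size of the shared movement varied. These genes were picked for their likeness on the same arrays, so the p-values below give no separate support for it. At 24 h without serine, compound 16 raised SARS1 by 1.11 ± 0.07 and SHMT2 by 0.61 ± 0.07 (adjusted p = 6.56e-16 and 1.73e-08), and PPP4R3B by 0.21 ± 0.06 (adjusted p = 0.0264). GARS1 rose by 1.04 ± 0.06, CARS1 by 1.28 ± 0.06 and PCK2 by 1.63 ± 0.09 (adjusted p = 1.37e-15, 9.52e-18 and 4.17e-16). In DMSO at 0 h, CARS1 was 0.67 lower without serine (-0.67 ± 0.06, adjusted p = 8.26e-09) and GARS1 fell by 0.37 (SE 0.06, adjusted p = 0.00018), while SARS1 differed by 0.14 ± 0.07 (adjusted p = 0.209) and SHMT2 by -0.07 ± 0.07 (adjusted p = 0.604).

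**Figure D5:**
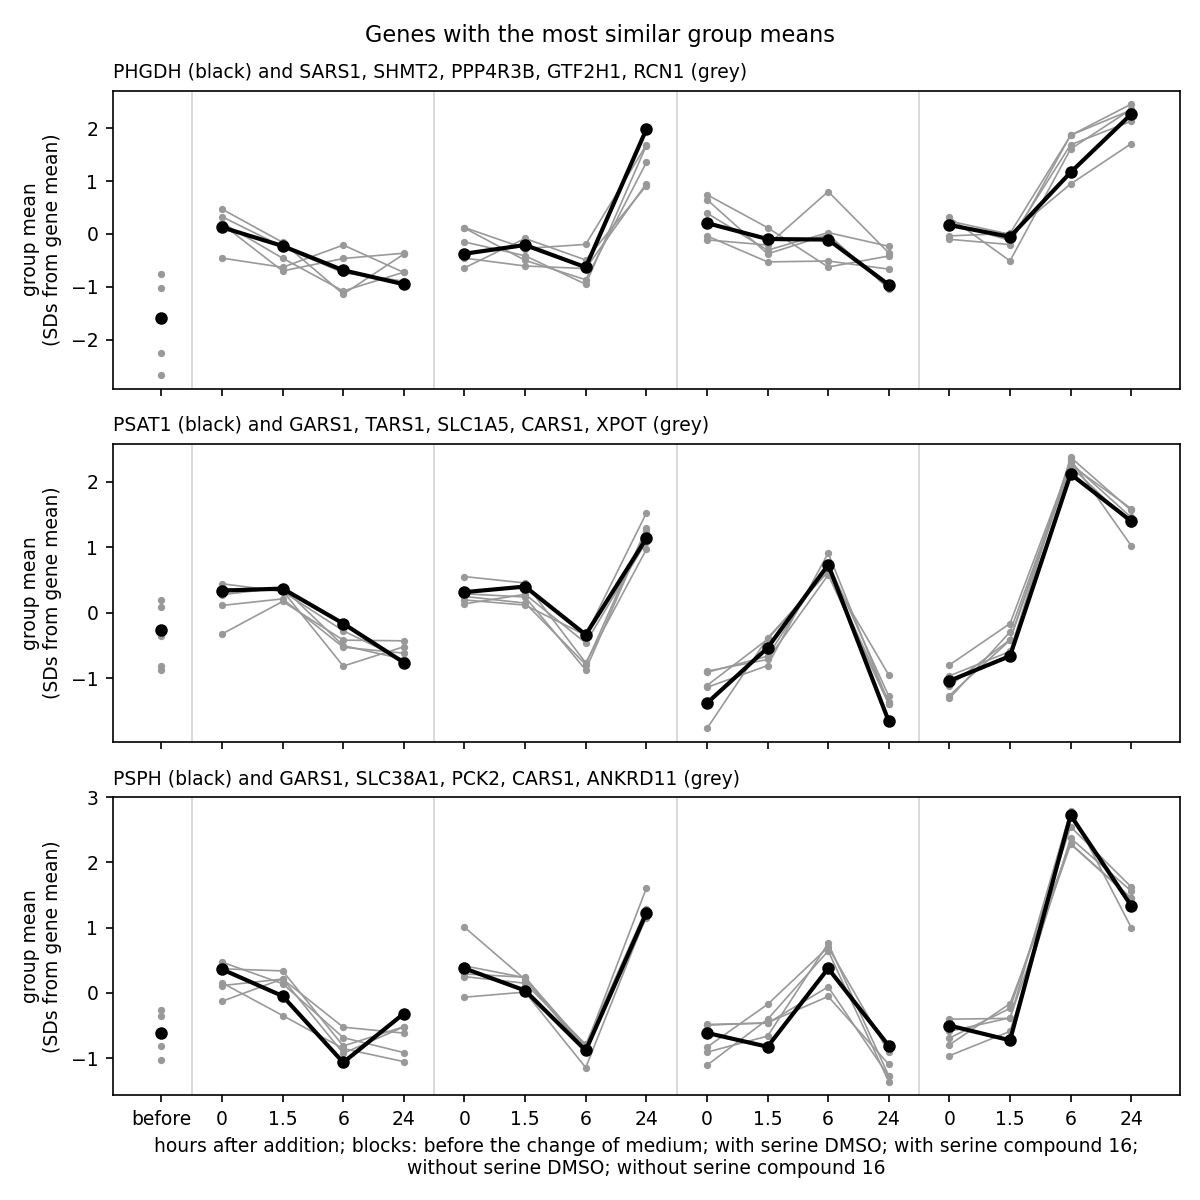
Group means (vertical axis, in SDs from the mean of each gene over the groups) of the 3 members (black) and of the 5 genes most like each (grey), by medium, treatment and hours after addition (horizontal axis). PSAT1 and its neighbours lay lower without than with serine in DMSO at 0 h, while PHGDH was lowest before the change of medium, and it and its neighbours were highest at 24 h under compound 16 without serine.

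The genes around the pathway moved in part with it. Among genes that use serine, 10 of 13 were measured. Compound 16 raised 3 of them without serine at 6 h and at 24 h: CBS, which joins serine to homocysteine (0.82 ± 0.08 and 2.08 ± 0.08; adjusted p = 1.39e-09 and 1.31e-21), SARS1 and SHMT2. The list median was 0.02 and 0.03, beside -0.01 and 0.00 over all genes, of which 1.49% and 2.97% were called higher. With serine at 24 h, where 0.746% of genes were called higher and 0.62% lower, 3 were higher (CBS 1.35 ± 0.08, adjusted p = 1.54e-15) and 1 lower, SHMT1, the cytosolic counterpart of SHMT2 (-0.29 ± 0.07, adjusted p = 0.0254). For serine lack in DMSO, CBS fell by 0.69 at 0 h (adjusted p = 2.01e-07), by 0.69 at 1.5 h (4.9e-06) and by 0.77 at 24 h (1.46e-07), and rose by 0.38 at 6 h (0.00275). It was the only 1 of the 10 called at 0, 1.5 and 24 h. At 6 h SARS1 was also higher (0.35 ± 0.07, adjusted p = 0.000828), and SRR, the serine racemase, was lower (-0.43 ± 0.10, adjusted p = 0.0113).

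Of the serine carriers, 8 of 8 were measured, and in DMSO at 0 h, 3 were lower without serine: SLC1A4, which exchanges small neutral amino acids such as serine (-0.81 ± 0.09, adjusted p = 2.01e-07), SLC1A5 (-0.40 ± 0.07, adjusted p = 0.00029) and SFXN1, the mitochondrial serine carrier (-0.42 ± 0.11, adjusted p = 0.0226). The list median was -0.13 beside 0.00 over all genes, of which 2.92% were called lower. At 6 h, 3 were higher: SLC38A2 (0.40 ± 0.06, adjusted p = 9.01e-06), SLC38A1 (0.35 ± 0.07, adjusted p = 0.00332) and SLC1A5 (0.25 ± 0.07, adjusted p = 0.0312), against 1.75% of genes called higher. Compound 16 raised 4 without serine at 6 h and 3 at 24 h, where 1.49% and 2.97% of all genes were called higher, led by SLC1A4 (0.65 ± 0.09 and 1.33 ± 0.09; adjusted p = 5.92e-06 and 5.55e-14). It raised 4 with serine at 24 h, against 0.746% of genes, where SLC7A10, named after its value was seen as the 1 carrier that fell, dropped by 0.47 (SE 0.13, adjusted p = 0.0463).

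Of the genes that supply the pathway, 7 of 8 were measured. In DMSO serine lack called 0 of 7 at each of the 4 times, where 5.91%, 1.97%, 3.18% and 0.159% of all genes were called from 0 to 24 h. Compound 16 called 0 of 7 without serine at 6 h (list median 0.00; 2.72% of all genes) and lowered 3 at 24 h, where 4.08% of genes were called lower: PKM, the pyruvate kinase (-0.35 ± 0.07, adjusted p = 0.000227), PGK1 (-0.15 ± 0.04, adjusted p = 0.0313) and ENO1 (-0.17 ± 0.05, adjusted p = 0.0372). PGK1 makes 3-phosphoglycerate, and ENO1 acts downstream of it in glycolysis. With serine at 24 h it called 0 of 7, against 1.37% of genes.

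All 9 genes listed as possible regulators of these enzymes were measured. For serine lack in DMSO, ATF4 fell by 0.26 at 0 h (SE 0.05, adjusted p = 0.00118) and differed by 0.15 ± 0.06 at 1.5 h (adjusted p = 0.25). It rose by 0.53 ± 0.05 at 6 h (adjusted p = 8.31e-09) and fell by 0.25 at 24 h (SE 0.05, adjusted p = 0.022). TRIB3, a pseudokinase induced through ATF4, rose by 1.05 ± 0.07 at 6 h (adjusted p = 1.49e-12). In the added comparisons between times, the serine effect in DMSO was called higher at 6 h than at 0 h for 3 of the 9. It was called lower at 24 h than at 6 h for 2. Of all genes, 0.329% and 0.406% were so called, and the values of ATF4 in these comparisons are not given here. Compound 16 raised 5 of 9 without serine at 6 h, with TRIB3 at 1.85 ± 0.07, DDIT3 at 1.91 ± 0.19, CEBPB at 0.84 ± 0.06 and ATF3 at 1.20 ± 0.14 (adjusted p = 1e-20, 6.55e-09, 5.19e-12 and 1.01e-07), with a list median of 0.27 beside -0.01 and 1.49% of all genes called higher. It raised 6 of 9 at 24 h (ATF4 0.74 ± 0.05, adjusted p = 7.25e-14; 2.97% of all genes) and 3 of 9 with serine at 24 h (ATF4 0.48 ± 0.05, adjusted p = 2.93e-08; 0.746% of all genes). NFE2L2, the gene of NRF2 and named after its values were seen, was called in none of the 8 compound comparisons (-0.04 to 0.15). At 1.5 h without serine the compound raised 2 of the 9, DDIT3 (1.19 ± 0.19, adjusted p = 0.00146) and ATF3 (0.67 ± 0.14, adjusted p = 0.0369), where 0.0768% of all genes were called higher. Whether any of the 9 acts on the members was not tested.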

How the data were processed

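RNA of A549 cells had been labelled with biotin and hybridised to Affymetrix HG-U219 arrays. The authors deposited log2 expression values per probe set, made with RMA per the submitters' processing notes; the sources used here state neither its settings nor its version. These values were used as deposited, with no filter. Of 49386 probe sets, 45259 carried 1 gene symbol in the platform annotation, 1327 several and 2800 none; the 18239 genes were each read from the probe set with the highest mean. The RefSeq table changed 0 symbols, and 47 genes kept a platform symbol that it does not list.

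A model of 17 group means was fitted to the 50 arrays with limma 3.58.1 in R 4.3.3 and tested on simulated data. Calls are Benjamini-Hochberg adjusted p-values under 0.05 over all genes within each of 42 comparisons, and of 5 more added after the values were seen. The median SE over genes was 0.122 for 3 against 3 arrays; the number of arrays limits the precision. Members and lists were chosen with earlier results of these data known. The genes named besides the members are the 5 most alike by Pearson's r over group means, and up to 4 called genes of each of 4 lists by smallest p in a comparison described. Nothing says that arrays came from separate cultures, so p-values measure the spread between arrays, which may be technical. Array numbers in the titles run through the series and pair no samples; no 2 arrays were identical. Alternatives were quantile normalization, centring on medians (which shifted all genes by -0.08 to 0.25, and by over 0.1 in 10 of 47 comparisons), a filter on dim genes, other probe sets, fits of only the compared arrays, other priors, array weights, and leaving out each array.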

Additional observations from a re-analysis of the deposited data

Results flagged for a closer look

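The results below stand out because an effect differed between media or between times by a test of the difference itself, in limma with adjustment over all genes. The effect of compound 16 was larger without than with serine at 6 h for PHGDH (0.60 ± 0.11 log2 units), PSAT1 (0.67 ± 0.11) and PSPH (0.51 ± 0.09), and at 24 h for PSAT1 (0.50 ± 0.11). The 24 h difference was called by 3 of the 8 PSAT1 probe sets. It ended without replicate 98 of the DMSO group with serine (0.41, adjusted p = 0.0765). With only the compared arrays fitted, adjusted p was 0.0987 for it, and 0.0532 for PHGDH and 0.0535 for PSPH at 6 h.

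The effect of serine lack differed between times. From 0 to 6 h in DMSO it moved by 1.13 ± 0.11 for PSAT1 and 0.57 ± 0.09 for PSPH, and from 6 to 24 h by -0.77 ± 0.11 and -0.46 ± 0.09. Under compound 16 it moved from 0 to 6 h by 0.62 ± 0.11 for PHGDH, 1.64 ± 0.11 for PSAT1 and 1.06 ± 0.09 for PSPH, and from 6 to 24 h by -0.75 ± 0.11, -0.94 ± 0.11 and -0.82 ± 0.09. The PSPH step of -0.46 in DMSO was called by 1 of its 3 probe sets. Its adjusted p was 0.104 with only the compared arrays fitted. The comparisons between times were added after the values were seen, and both steps share their 6 h arrays.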

How the results depend on the processing

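Of 141 values of the 3 genes in 47 comparisons, 83 were called. Leaving out genes with dim signal ended 0 of these calls, quantile normalization 1, array weights 2, the mean of all probe sets 7, centring 8 and fitting only the compared arrays, which has fewer residual degrees of freedom, 33. No paired analysis was possible because no groups share replicate numbers in the labels.

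With arrays centred, the count of members called became 2 for serine lack at 1.5 h in DMSO and under the compound, and 1 for the move to medium with serine and for the steps 0 to 1.5 h (compound without serine), 6 to 24 h (DMSO with serine) and 1.5 to 6 h (compound with serine). Without dim genes it became 2 for serine lack under the compound at 1.5 h, and with array weights 1 from 6 to 24 h in DMSO with serine. With probe sets averaged it became 0 from 0 to 1.5 h in DMSO without serine, and 1 from 1.5 to 6 h there, from 6 to 24 h in DMSO with serine and from 1.5 to 6 h in the compound with serine. With only the compared arrays it became 0 for serine lack in DMSO at all 4 times and under the compound at 0 and 1.5 h, and 1 for the 6 h difference between media and the move to medium with serine; in the other comparisons where it changed by over 1.5 times it was 0 or 1. Leaving out 1 array gave ranges of 1 to 2 (24 h DMSO with serine against the cells before; serine lack in DMSO at 0 h), 1 to 3 (serine lack, compound arrays, 0 h), 0 to 1 (serine lack in DMSO at 1.5 and 24 h; the 24 h difference between media; 6 to 24 h in DMSO with serine; 0 to 1.5 h in the compound without serine), 0 to 2 (1.5 to 6 h in the compound with serine) and 0 to 0 (1.5 to 6 h in DMSO with serine, 1 with all arrays).

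The other PSAT1 and PSPH probe sets gave counts of 0, 1 or 2 where the count changed by over 1.5 times. Of 34 PSAT1 calls, the 7 others each left 1 to 16 below the threshold in the same direction, and 3 of them also turned 1 call. The step of PSAT1 from 0 to 1.5 h in DMSO without serine turned to -0.14, -0.06 and -0.12 under 11747348_a_at, 11747349_s_at and 11741479_a_at. For PSPH, 11754138_s_at gave -0.54 for the change to medium without serine, and 0.53 in DMSO and 0.46 under the compound from 0 to 1.5 h without serine. The dim 11763252_x_at turned PSPH to -0.04 and -0.05 (compound at 24 h without and with serine), -0.04 and -0.20 (serine lack at 6 h in DMSO and under the compound), -0.16 (the 6 h difference between media), 0.17 (change of the serine effect from 6 to 24 h, compound), -0.06 and 0.11 (1.5 to 6 and 6 to 24 h, DMSO without serine), -0.01 and 0.02 (the same steps, compound without serine), 0.11 (1.5 to 6 h, DMSO with serine), and 0.19 and -0.14 (both steps, compound with serine). The cause was not tested. Low signal limits what that probe set can show.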
